A study of Arabidopsis thaliana with 18 samples.

Results

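GRP7 (AT2G21660) encodes a small glycine-rich RNA-binding protein of Arabidopsis thaliana whose transcript is an output of the circadian clock. It is described here across 18 seedling RNA-seq libraries. The rule that picks it is its locus name and holds no measured value, but the gene was proposed for description with earlier results of these data known. It is 1 of the 11437 distinct genes listed in the deposited table. That locus name stood on 2 lines of the table. The line with the symbol GRP7 and the gene number of AT2G21660 was used. The other line carried the symbol CCR2, an older synonym of GRP7, but its gene number belongs to AT1G80820, a cinnamoyl-CoA reductase gene of lignin synthesis. Its counts were 11 to 21 in the untreated libraries and 28 to 84 in the libraries collected at ZT 2, against 705 to 782 and 56 to 216 for the GRP7 line, and it was not used.

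The study asked how chemicals that modify sugar signalling act on seedlings at dawn. Wild-type Col-0 seedlings aged 14 days had grown on half-strength Murashige and Skoog medium under cycles of 12 h light and 12 h dark. Untreated seedlings were collected at ZT 0, where ZT is zeitgeber time, counted in hours from lights on. All other seedlings were moved at ZT 0, before the lights came on, to medium with an added agent and were collected at ZT 2. The solvent control was DMSO at 0.1%. The chemicals were DPI at 10 µM, the antiprotozoal drug pentamidine isethionate (PI) at 25 µM, AEG3482 (AEG) at 12.5 µM, and Tyrphostin AG879 (TYR), an inhibitor of receptor tyrosine kinases, at 2 µM. Each of the 6 groups had 3 libraries. Between the untreated and the DMSO seedlings, the time of day, the light, the transfer and the solvent all differ, and their parts in any difference cannot be told apart. The labels do not say whether libraries of a group came from separate plates of seedlings, so p-values measure the spread between these libraries, which may be technical.

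GRP7 carries an RNA recognition motif and a glycine-rich tail. Its transcript is known to peak around the end of the day, and it oscillates under the control of the clock proteins CCA1 and LHY. As the protein accumulates it binds its own pre-mRNA and favours an alternative splice form with an early stop codon, which is degraded by nonsense-mediated decay. It acts in the same way on the transcript of its close relative GRP8, and it is known for roles in flowering, cold tolerance and immunity.

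In the RefSeq annotation of TAIR10.1, GRP7 lies at chr2:9265084-9266557 on the minus strand, and no annotated gene overlaps it. Its model with 2 exons is 1165 bases long and has an intron of 309 bases. Its model with 3 exons is 785 bases long and has introns of 309 and 51 bases. The deposited values are per gene, so the splice forms cannot be told apart. GRP7 and GRP8 shared 15 of the 1154 stretches of 25 bases in the spliced GRP7 models and 0 of those of 50 bases, and every count of both genes was a whole number.

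The 250 bases before the annotated start of each gene are shown because they hold the evening element, AAAATATCT, a sequence known from clock-controlled genes that peak late in the day. Both are read 5′ to 3′ along the gene's strand, and capitals mark the element on either strand, which reads AGATATTTT where it lies on the opposite one. The GRP7 window is chr2:9266558-9266807 and the GRP8 window is chr4:18275217-18275466, both on the minus strand of TAIR10.1.
GRP7: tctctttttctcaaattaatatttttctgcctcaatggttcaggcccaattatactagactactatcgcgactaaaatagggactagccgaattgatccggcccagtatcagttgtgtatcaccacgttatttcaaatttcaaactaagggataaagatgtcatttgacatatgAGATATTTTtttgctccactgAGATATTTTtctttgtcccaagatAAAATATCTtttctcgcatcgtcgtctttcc
GRP8: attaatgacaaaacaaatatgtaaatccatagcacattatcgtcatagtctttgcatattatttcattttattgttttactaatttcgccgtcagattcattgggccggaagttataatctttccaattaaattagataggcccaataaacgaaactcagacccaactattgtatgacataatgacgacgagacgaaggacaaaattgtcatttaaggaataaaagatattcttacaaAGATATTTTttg
The GRP7 window held 3 copies and the GRP8 window held 1. In GRP7 the copies began 76, 55 and 31 bases before the start, the first 2 on the opposite strand and the last on the gene's own strand. The GRP8 copy began 12 bases before its start. Of 27444 windows of this length before protein-coding genes, 648 (2.36%) held the element and 3 (0.0109%) held 3 or more copies: those of GRP7, AT3G05800 and AT5G48250. The G-box CACGTG and the CCA1 binding site AAAAATCT, searched on both strands, were in neither the GRP7 nor the GRP8 window, and were in 6.49% and 6.69% of all windows. The shorter core AATATCT, which is contained in the element, was in 10.0% of windows, with 3 copies in GRP7 and 2 in GRP8.

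**Figure D1:**
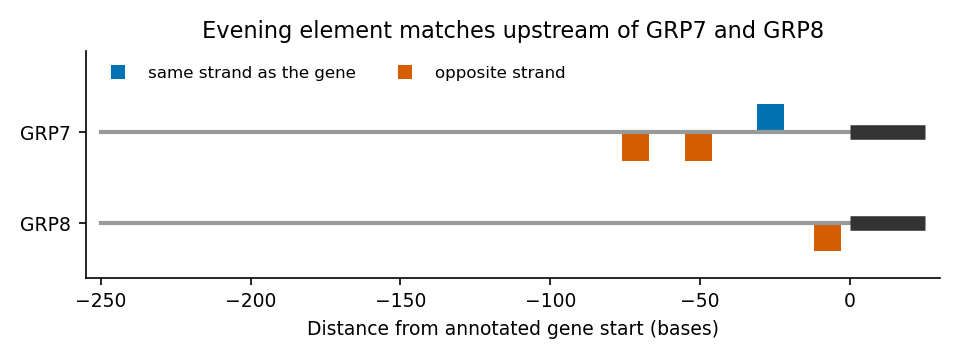
Positions of the evening element in the 250 bases before the annotated start of GRP7 and GRP8 (horizontal axis, bases; the dark bar marks the start of the gene, to the right of 0). GRP7 holds 3 copies within 76 bases of its start and GRP8 holds 1, which begins 12 bases before its start.

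Deposited counts summed to between 3156987 and 3249696 per library. These totals cover the listed genes, whose TPM (a level scaled by transcript length and library) added up to 48.4 to 49.0% of the whole that TPM is scaled to. Of the markers checked against the seedling label, 1 of 4 leaf genes and 2 of 4 root genes were in the table. Levels in CPM are counts relative to the library's summed counts of the genes tested, scaled as described below. The leaf gene LHCA1, a light-harvesting protein of photosystem I, was at 3896 CPM at ZT 0. The root gene PYK10, a beta-glucosidase of the endoplasmic reticulum bodies, was at 3086 CPM there. Thus 1 marker of each organ was high. The root aquaporin gene TIP2-3 was low, at 3.24 CPM. In whole seedlings, fewer cells of a type and less RNA per cell cannot be told apart. LHCA1 was higher in the DMSO libraries at ZT 2, at 8919 CPM (log2 fold change 1.19), while PYK10, at 2467 CPM, and TIP2-3, at 2.18 CPM, did not pass the test. Against untreated seedlings, LHCA1 was also called higher in DPI, PI, AEG and TYR, with log2 fold changes of 0.96, 1.23, 1.13 and 1.19, and PYK10 was called in none of them. TIP2-3 was at 2.78, 6.34 and 0.592 CPM in the untreated libraries and at 0 in all 3 AEG libraries, the group in which it was called lower (adjusted p = 0.00925, edgeR quasi-likelihood test). Their part in the GRP7 result was not tested. DPI replicate 1 stood apart from the other ZT 2 libraries, as described with the values of GRP7.

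GRP7 fell by about 4-fold between the untreated seedlings at ZT 0 and the DMSO seedlings at ZT 2. In the untreated libraries its level, in CPM scaled by the TMM factors of edgeR, was 233, 236 and 209. In the DMSO libraries it was 53.5, 59.9 and 47.2 CPM. Each untreated library was above each DMSO library, and the groups did not overlap. The means were 226 ± 15.01 and 53.5 ± 6.34 CPM (SD, n = 3 each), which rested on 705 to 782 and 157 to 188 counts per library. The fitted log2 fold change was -2.08 (SE 0.29, 95% interval -2.68 to -1.47), a level 4.22-fold lower in DMSO (adjusted p = 1.36e-05, edgeR quasi-likelihood test with Benjamini-Hochberg adjustment over 9006 genes).

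Many genes changed in the same comparison. Of the 9006 genes tested, 3204 (35.6%) passed an adjusted p of 0.05, and 1438 (16%) were lower in DMSO. The 3 libraries of each group did not overlap for 49.4% of genes. By log2 fold change GRP7 was the 51st most negative of all genes tested. The median size of the change over all tested genes, without regard to its sign, was 0.41 on the log2 scale. Per length, GRP7 stood at 154 ± 8.09 TPM at ZT 0 and at 36.2 ± 3.77 TPM in DMSO (SD, n = 3 each). Its rank by TPM among the 11437 listed genes was 471 to 518 in the untreated libraries and 1744 to 2756 in the ZT 2 libraries other than DPI replicate 1, where it was 4590.

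Every other ZT 2 group was also lower than the untreated one. In PI the libraries were at 52.5, 62.0 and 47.7 CPM. In AEG they were at 54.6, 46.5 and 51.3 CPM. In TYR they were at 41.1, 49.6 and 66.0 CPM. These 9 libraries lay between 41.1 and 66.0 CPM, all of them below the lowest untreated library. In DPI the libraries were at 17.0, 61.3 and 69.2 CPM, so that this group held both the lowest and the highest level of GRP7 at ZT 2. By the edgeR quasi-likelihood test, the log2 fold change from the untreated group was -2.20 in DPI (adjusted p = 6.36e-06), -2.06 in PI (1.35e-05), -2.15 in AEG (7.85e-06) and -2.11 in TYR (1.08e-05). These comparisons share the untreated libraries. Against the untreated group, 40.1% of genes were called in DPI (18.4% lower), 38% in PI (17.8% lower), 40% in AEG (18.8% lower) and 37.4% in TYR (17.3% lower), and 11.3% of genes were called lower in all 5 groups.

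Over all libraries the log2 level averaged 7.82 ± 0.10 at ZT 0 (SD, n = 3) and 5.66 ± 0.47 at ZT 2 (SD, n = 15), a difference of -2.16. A two-sided exact permutation test gave p = 0.00123, the smallest that the 816 arrangements of 18 libraries allow (0.00184 after adjustment over the 3 exact tests made). No ZT 2 library overlapped the untreated ones, which was so for 31.5% of the genes tested.

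**Figure D2:**
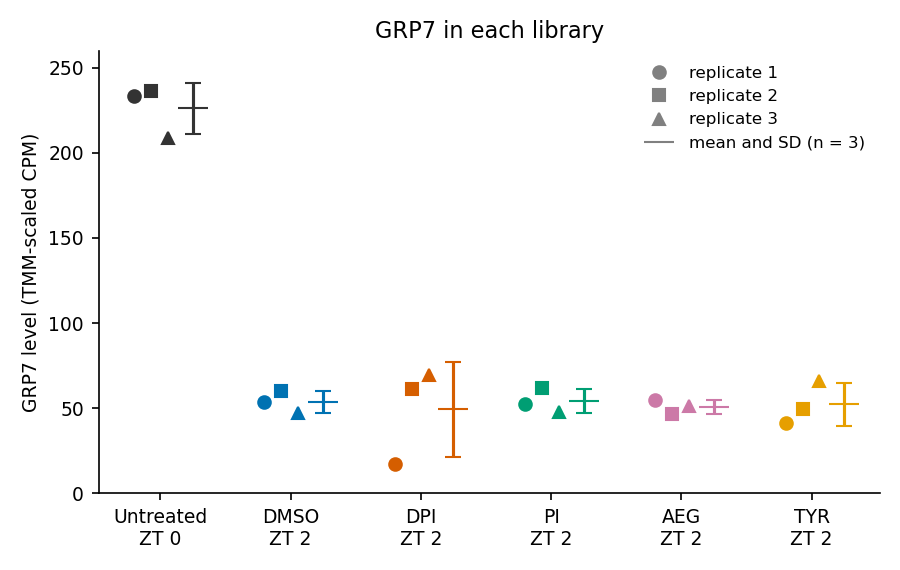
GRP7 level in TMM-scaled CPM (vertical axis) in each of the 18 libraries by group (horizontal axis), with the mean and SD of each group beside its 3 points. The untreated libraries lie between 209 and 236 CPM, and the ZT 2 libraries lie between 17.0 and 69.2 CPM with DPI replicate 1 at the bottom.

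None of the 4 chemicals moved GRP7 detectably from its level in DMSO. The means were 53.5 ± 6.34 CPM in DMSO, 49.2 ± 28.1 in DPI, 54.1 ± 7.27 in PI, 50.8 ± 4.11 in AEG and 52.3 ± 12.7 in TYR (SD, n = 3 each). Ordered by these means the groups ran PI, DMSO, TYR, AEG and DPI, and no neighbours in this order differed beyond their spread. The log2 fold change from DMSO was -0.12 for DPI (95% interval -0.75 to 0.50, adjusted p = 0.994 by the edgeR quasi-likelihood test). It was 0.02 for PI (-0.60 to 0.64, adjusted p = 0.999). It was -0.07 for AEG (-0.70 to 0.55, adjusted p = 1.00). It was -0.04 for TYR (-0.66 to 0.58, adjusted p = 0.997). These intervals still admit a fall to 0.596 times or a rise to 1.55 times the DMSO level, so they do not show that the level was equal.

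The 6 pairs of chemicals, whose doses differ, gave log2 differences between -0.14 and 0.09 (edgeR quasi-likelihood test, adjusted p = 0.898 for each over the pairs). Across the 5 ZT 2 groups together, the exact permutation test over 1401400 partitions of the 15 libraries gave p = 0.993. The joint edgeR F test gave an adjusted p of 0.997 for GRP7. No gene of the 9006 passed in that joint test by edgeR, where 380 had an unadjusted p under 0.05. Likewise 0% of genes were called for any chemical against DMSO by edgeR, and the numbers with an unadjusted p under 0.05 were 323 in DPI, 223 in PI, 302 in AEG and 351 in TYR. By DESeq2, 1 gene was called for AEG and 0 for the others.

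**Figure D3:**
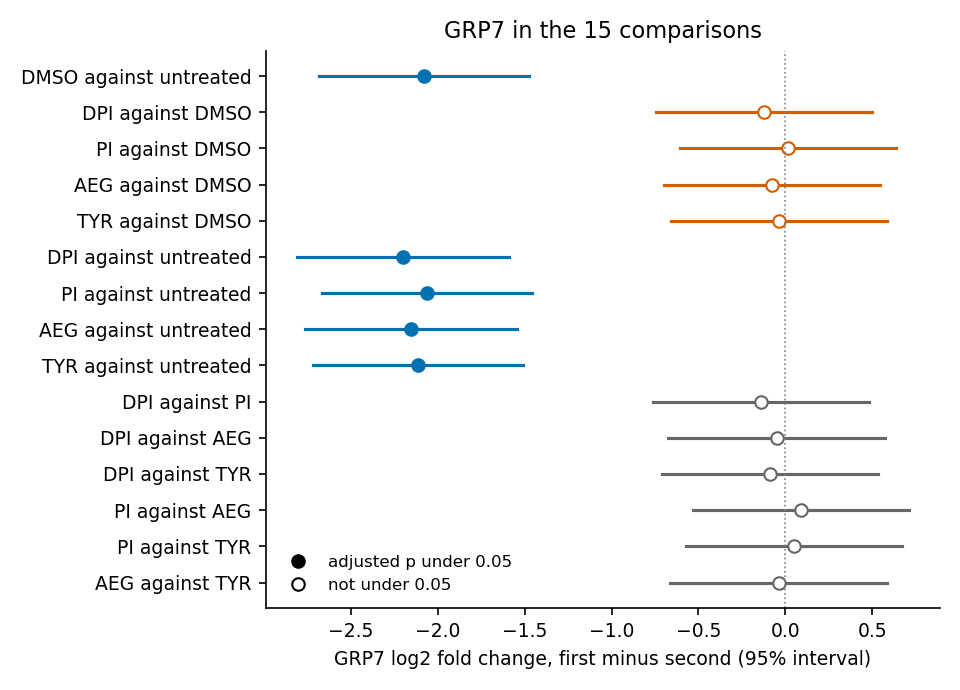
Log2 fold change of GRP7 (horizontal axis, first group minus second) with its 95% interval in each of the 15 comparisons (rows); filled points passed an adjusted p of 0.05. The 5 comparisons with the untreated group lie between -2.20 and -2.06, and the other 10 lie between -0.14 and 0.09 with intervals that include 0.

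DPI replicate 1 held 56 GRP7 counts, or 17.0 CPM (95% exact binomial interval 12.8 to 22.1, which covers counting error only), while DPI replicates 2 and 3 held 204 and 216. Of 7456 genes with a mean of at least 8 CPM at ZT 2, 33 were at least 2-fold lower in this library than in every other ZT 2 library, and GRP7 was among them. In the other 14 libraries that number was 0 to 4. The longest RefSeq transcript was under 1200 bases for 84.8% of these 33 genes and for 17.97% of all 7456. The median log2 deviation of the 1340 genes with such short transcripts was -0.32 in DPI replicate 1, and lay between -0.07 and 0.15 in the others. GRP7 deviated by -1.57 and GRP8 by -1.28 there. The part of transcript length in the low GRP7 level was not tested. Without this library the DPI mean lay above DMSO, at a log2 difference of 0.28 (adjusted p = 1.00 by the edgeR quasi-likelihood test), and the difference of DPI from the untreated group was -1.79 (adjusted p = 3.55e-07). The difference of all ZT 2 libraries from ZT 0 was then -2.05 (exact permutation p = 0.00147), and the 14 remaining libraries averaged 54.5 ± 8.15 CPM (SD).

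The transcript length that the deposited count and FPKM (fragments scaled by length and library) imply for GRP7 averaged 1086 ± 43.4 bases (SD, n = 18), on a scale set by 1726 genes with a single RefSeq transcript. It lay between 1097 and 1108 bases in 14 libraries, the 3 untreated ones among them. It was 942 in DPI replicate 1, 1016 in DMSO replicate 1, 1049 in DPI replicate 2 and 1075 in PI replicate 2. All values lay between the lengths of the RefSeq models. The scale rests on full transcript lengths and is approximate. For AT1G80820 it gave 1481 bases in untreated replicate 1, below that gene's shortest RefSeq model of 1510 bases. The values are thus not a measured splice ratio, and how the authors' counting divided the reads between the GRP7 models was not tested.

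GRP8 (AT4G39260), the closest relative of GRP7 and a target of its splicing control, rose where GRP7 fell. Its level was 51.8, 56.5 and 61.3 CPM in the untreated libraries and 109, 127 and 119 CPM in the DMSO libraries, with no overlap. The log2 fold change was 1.06 (SE 0.23, adjusted p = 0.00116, edgeR quasi-likelihood test), beside 19.6% of genes called higher. In PI it was at 156, 149 and 141 CPM, the highest group, at a log2 fold change of 1.39 from the untreated one (adjusted p = 7.59e-05, edgeR). The log2 fold changes of AEG and TYR were 1.11 and 1.18 (adjusted p = 0.000686 and 0.000396, edgeR). In DPI it was at 51.3, 122 and 126 CPM, where replicate 1 was not raised and lay just below the lowest untreated library, at 51.8 CPM. That group's log2 fold change was 0.82 with the library (adjusted p = 0.00783, edgeR) and 1.13 without it (1.38e-05). The DPI call was lost when the libraries of replicate 2 or of replicate 3 were left out of every group (adjusted p = 0.151 and 0.110, edgeR). Among all genes, 21.7% were called higher than untreated in DPI, 20.2% in PI, 21.2% in AEG and 20.1% in TYR. GRP8 was not called for any chemical against DMSO.

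The order of the pair reversed between the time points. Within each untreated library the GRP7 TPM was 2.86, 2.88 and 2.24 times that of GRP8. In the 15 ZT 2 libraries it was 0.215 to 0.358 times that of GRP8, with a median of 0.270. All 3 untreated libraries thus had more GRP7 than GRP8 per length, and all 15 ZT 2 libraries had less, DPI replicate 1 included. The log2 ratio, with 1 added to each TPM, was 1.39 ± 0.20 at ZT 0 (SD, n = 3) and -1.82 ± 0.27 at ZT 2 (SD, n = 15). The difference of -3.20 had p = 0.00123 in a two-sided exact permutation test, the smallest possible (0.00184 adjusted over the 3 tests).

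**Figure D4:**
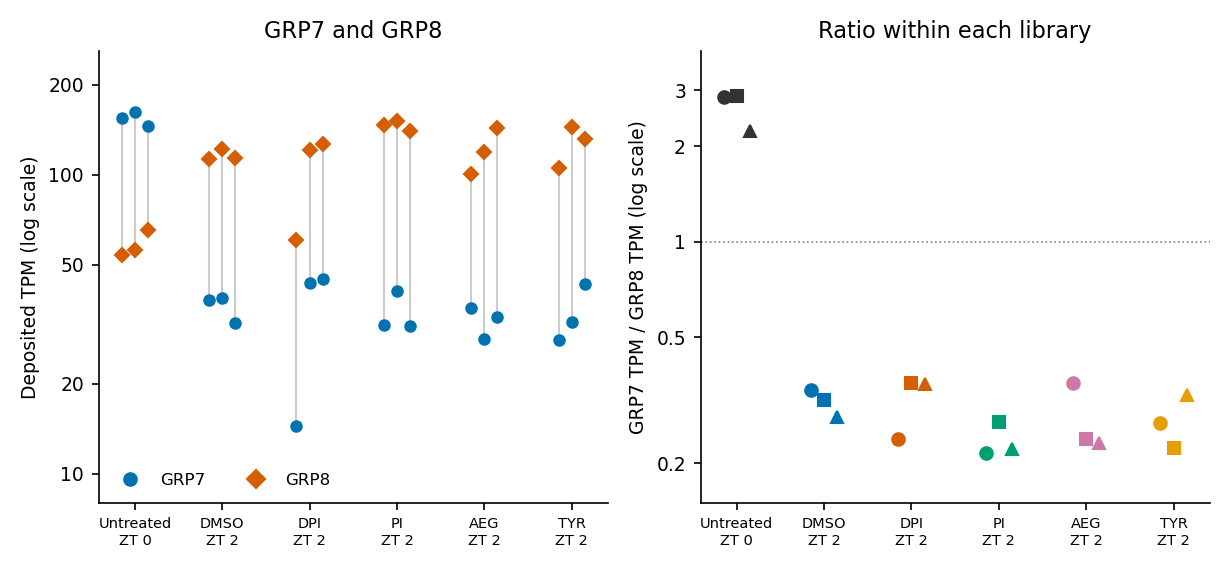
Left, deposited TPM (log axis) of GRP7 and GRP8 in each library, joined by a line within the library; right, the ratio of GRP7 TPM to GRP8 TPM (log axis) in each library by group. The ratio lies between 2.24 and 2.88 at ZT 0 and between 0.215 and 0.358 at ZT 2.

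Among the 13 listed relatives, which are glycine-rich RNA-binding and cold-shock-domain proteins, 5 were in the table and tested, and the rest were not analysed here. GRP8 rose and 1 relative fell between the untreated and DMSO groups, and 3 did not pass the test. These 2 of 5 called stand beside 35.6% of all genes tested, a share close to theirs. CSP4, a cold-shock-domain protein with RNA chaperone activity, went from 54.0 ± 6.74 to 20.9 ± 5.86 CPM (SD, n = 3 each, log2 fold change -1.37, adjusted p = 0.000622, edgeR). The mitochondrial proteins of the family did not pass: GRP2 had a log2 fold change of -0.18 and GRP4 of 0.09, and the value of GRP6 was -0.33 with counts that were not whole. The median over the 5 was -0.18, beside 0.02 over all genes tested.

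Of 19 clock genes listed, 10 were in the table and 7 were tested, of which 3 fell, 3 rose and 1 did not pass. CCA1, PRR9, PRR7, ELF3 and GI were among those not in the table, so these central clock genes could not be described. Of all genes tested, 16% fell and 19.6% rose. The median log2 fold change of the 7 was -0.19, beside 0.02 over all genes tested. LHY, a morning MYB repressor known to bind evening elements, fell from 2518 ± 97.9 to 902 ± 82.1 CPM (SD, n = 3 each, log2 fold change -1.48, adjusted p = 2.14e-07, edgeR). TOC1, an evening repressor of the morning genes, fell from 62.8 to 22.1 CPM (log2 fold change -1.51). JMJD5, a jumonji-domain protein that is expressed in the evening, fell from 60.7 to 4.02 CPM (log2 fold change -3.90). GRP7 thus fell beside the morning gene LHY and the evening genes TOC1 and JMJD5. The only evening gene called higher was LUX, whose call was lost in some alternatives, as described next with the other genes that rose.

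The clock genes that rose were LNK1, LUX and LNK2. LNK1, a morning coactivator of the clock, rose from 10.4 to 440 CPM (log2 fold change 5.39, adjusted p = 3.49e-12, edgeR). LUX, the DNA-binding member of the evening complex, rose from 40.05 ± 5.39 to 84.4 ± 29.1 CPM (SD, n = 3 each, log2 fold change 1.07, adjusted p = 0.0125, edgeR). LNK2, a second coactivator, had a log2 fold change of 0.63 (adjusted p = 0.0164, edgeR). Counts of LNK1 and LUX were not all whole. The LUX call was lost without the libraries of replicate 2 (adjusted p = 0.0602, edgeR) or replicate 3 (0.0743), and that of LNK2 without replicate 1 (0.103) or replicate 3 (0.178), and by limma on deposited TPM (0.0768). ZTL, a blue-light receptor that marks TOC1 for degradation, had a log2 fold change of -0.19 and did not pass. PRR5, PRR3 and ELF4 were too low to be tested.

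Of 6 genes described as targets of GRP7, only FLS2 was in the table. FLS2, the receptor kinase for bacterial flagellin, fell from 30.1 ± 8.96 to 8.95 ± 5.09 CPM (SD, n = 3 each). Its log2 fold change was -1.74 (SE 0.37, adjusted p = 0.00104, edgeR), and without the libraries of replicate 2 it was -1.16 with an adjusted p of 0.0538. Of the 6 genes of nonsense-mediated decay and cap binding, 2 were tested and neither passed. Of all genes tested, 35.6% passed in this comparison, and 1 target and 2 decay or cap-binding genes are too few to describe their lists. The decay factor UPF2 had a log2 fold change of -0.03, and the cap-binding protein CBP20 had one of -0.34 (adjusted p = 0.0747, edgeR).

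Of 11 splicing factor genes listed, 8 were tested, of which 2 fell, 2 rose and 4 did not pass. Among all genes tested 35.6% were called, and the median log2 fold change of the 8 was -0.02, beside 0.02 over all. RS40 and SR34, which are serine/arginine-rich splicing factors, fell by 1.16 and 0.71 on the log2 scale (adjusted p = 1.07e-05 and 0.000151, edgeR). SCL30A, a splicing factor of the same family, rose from 72.5 to 122 CPM (log2 fold change 0.75, adjusted p = 0.000263, edgeR). SR45, a splicing cofactor, rose by 0.42 (adjusted p = 0.0301, edgeR), a call lost without TMM scaling (0.0637). SR45 also missed the threshold without the libraries of replicate 1 (0.0933) or replicate 2 (0.226), and by limma on deposited TPM (0.157). SR30, RS31, RS41 and SCL33 did not pass, with log2 fold changes from -0.05 to 0.29. No member of these lists was called for any chemical against DMSO, the smallest adjusted p being 0.990 (edgeR). Nor was any other of the 9006 genes tested called there by edgeR, so this is not particular to the lists.

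**Figure D5:**
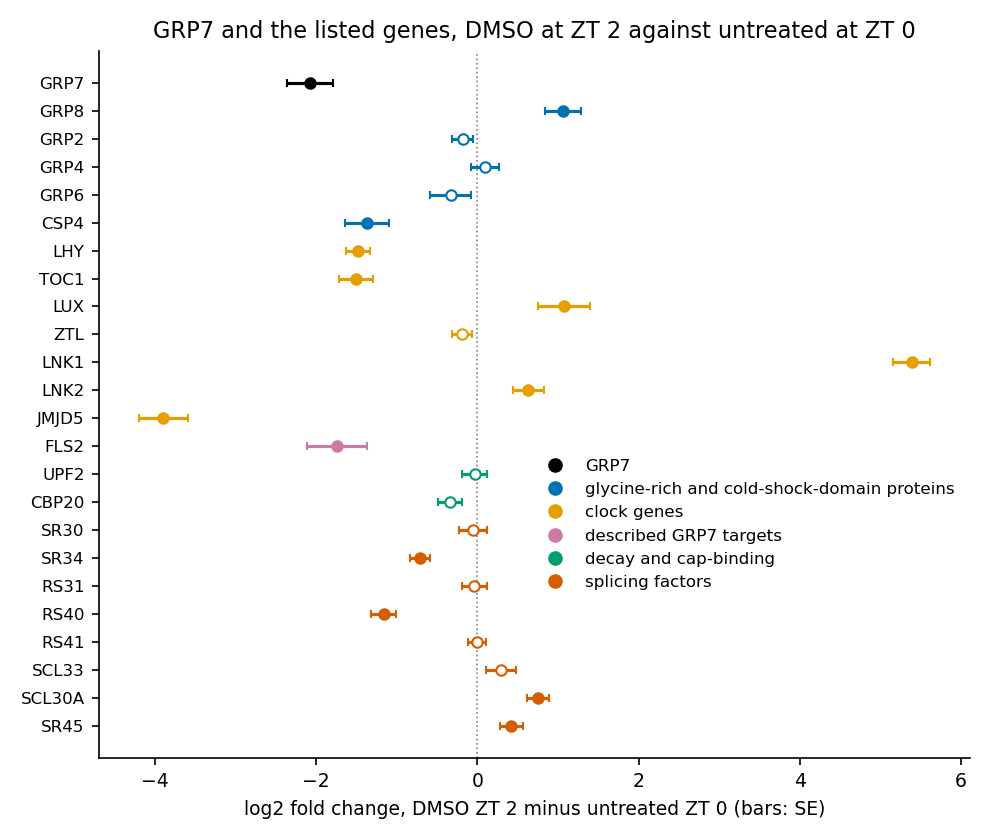
Log2 fold change between DMSO at ZT 2 and untreated seedlings at ZT 0 (horizontal axis; bars, SE) for GRP7 and each tested gene of the lists (rows); filled points passed an adjusted p of 0.05. GRP7 lies at -2.08, GRP8 at 1.06, and the clock genes from -3.90 for JMJD5 to 5.39 for LNK1.

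The evening element of the GRP7 window was also in the windows of 213 other genes tested. Of all 214, 102 (47.7%) passed between the untreated and DMSO groups, 53 higher (24.8%) and 49 lower (22.9%), beside 35.6%, 19.6% and 16% of all genes tested. Their median log2 fold change was 0.00, so that as a group they moved in both directions. The largest falls were those of COR27, PORB and AT5G63190. COR27, a clock and light-signalling repressor with 2 copies, went from 122, 139 and 101 counts to 1, 0 and 3. PORB, an enzyme of chlorophyll synthesis, went from 868 to 1029 CPM at ZT 0 to between 91.4 and 103 CPM in DMSO (log2 fold change -3.35, adjusted p = 8.06e-10, edgeR).

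AT5G63190 went from 379 to 410 CPM at ZT 0 to between 65.6 and 74.0 CPM in DMSO (log2 fold change -2.46, adjusted p = 3.49e-12, edgeR). The largest rises started from counts at or near 0 in the untreated libraries. FAMT, a methyltransferase, had 0, 1 and 2 counts there and 33, 936 and 336 in DMSO. AT1G54020 had 0, 0 and 0 counts and then 5, 29 and 13, and AT1G73325 had 0, 0 and 3 and then 11, 106 and 30. The DMSO libraries of each of these differed widely among themselves. AT3G05800, the other tested gene with 3 copies of the element, was at 12.2 ± 2.42 CPM at ZT 0 and 14.2 ± 1.11 CPM in DMSO (SD, n = 3 each, log2 fold change 0.22, adjusted p = 0.588, edgeR).

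The 6 genes whose pattern over the 18 libraries was most like that of GRP7 were found by the root mean square difference of log2 CPM, after each gene's mean was subtracted. Over 7485 genes its median was 0.94, and for GRP8 it was 1.23. AT4G27130, a translation initiation factor of the SUI1 family, was nearest at 0.33, with 369 CPM at ZT 0 and 74.6 CPM in DMSO. UGE1, an epimerase of UDP-glucose and UDP-galactose, was also at 0.33, with 149 and 34.7 CPM. DIN4, which is induced in darkness and codes for a subunit of branched-chain keto acid dehydrogenase, was at 0.37, with 89.8 and 18.2 CPM. The others, each at 0.37, were RPL18AA, a ribosomal protein gene with counts that were not whole, AT5G26200, a mitochondrial carrier, and AT1G07170, which codes for a PHF5-like protein. DPI replicate 1 was the lowest ZT 2 library in all 6, as in GRP7, and entered the measure of likeness. The gap to the next lowest ZT 2 library differed among them. It was 5.16 against 13.1 CPM in AT1G07170, and 17.0 against 41.1 CPM in GRP7. In DIN4 it was only 14.3 against 14.4 CPM, and in RPL18AA 25.2 against 25.9 CPM. None of the 6 windows before these genes held the evening element, which was in only 2.36% of all windows.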

How the data were processed

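RNA was extracted from whole seedlings, selected by poly(A), made into NEBNext Ultra libraries and read as paired ends on an Illumina HiSeq, per the labels' protocols; whether the kit kept the strand is not given in the sources used here. HISAT2 2.2.1, RSEM 1.2.22 and the build TAIR10 are named, without roles, in the submitters' processing notes. The authors deposited 1 table of expected counts, TPM and FPKM for 18 libraries. TPM and FPKM are the authors' own levels per length. Of its 29431 lines 11981 named a gene, 544 of these repeated another line with the same values, and 11437 genes remained; 3.59% of counts were not whole (tolerance 1e-06) and were rounded.

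All 18 libraries were fitted together in edgeR 4.0.16 (R 4.3.3) with TMM scaling, the filterByExpr filter (9006 genes kept), a coefficient per group and 12 residual degrees of freedom. The quasi-likelihood test was used with Benjamini-Hochberg adjustment over all genes tested and a threshold of 0.05. CPM uses the summed counts of the genes tested, scaled by TMM; log2 CPM adds a prior count of 2. Alternatives used DESeq2 1.42.0, limma 3.58.1, other scalings and filters, a replicate block, and leaving out libraries. Single values were tested by exact permutation over libraries. The edgeR steps were tested on simulated data. Windows were read with Python 3.11.15 from TAIR10.1, the RefSeq release of the build named in the notes.

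Same-numbered replicates of different groups did not deviate together: the correlations of their deviations ran from -0.31 to 0.27, and in 0 of 15 comparisons did every pair exceed 0.1. GRP7, the gene lists and the rule for named genes were chosen with earlier results of these data known. Named genes are the tested list members, the 6 genes most like GRP7, and the 3 largest falls and rises among called genes with an evening element. Depth limits precision: 1 library's floor of 3 counts is near 1 CPM, and exact binomial intervals cover counting error only.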

Additional observations from a re-analysis of the deposited data

How the results depend on the processing

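GRP7 stayed lower than untreated, and called, in each of the 5 ZT 2 groups under all alternatives run: the log2 fold change lay between -2.16 and -1.99 for DMSO (adjusted p from 4.96e-11 to 0.0024), between -2.60 and -1.77 for DPI, -2.17 and -1.98 for PI, -2.23 and -2.06 for AEG, and -2.39 and -1.93 for TYR. No alternative called GRP7 for a chemical against DMSO or between chemicals, and these small differences changed sign. With libraries left out, GRP7 against DMSO ranged from -0.53 to 0.28 for DPI, -0.10 to 0.10 for PI, -0.17 to 0.0674 for AEG and -0.33 to 0.11 for TYR. Between chemicals it ranged from -0.54 to 0.27 for DPI against PI, -0.38 to 0.41 for DPI against AEG, -0.42 to 0.32 for DPI against TYR, -0.0815 to 0.17 for PI against AEG, -0.10 to 0.33 for PI against TYR and -0.24 to 0.16 for AEG against TYR. Without TMM, PI against DMSO was -0.0341 and PI against TYR -0.0148; with limma on deposited TPM, PI against DMSO was -0.0757. The cause was not tested.

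Genes called between DMSO and untreated numbered 1318 with a log2 fold change of at least 1 required as well, and 1709 to 3357 with libraries left out, where fewer samples enter. For the other ZT 2 groups against untreated the range was 2324 to 3186 for DPI, 2173 to 3580 for PI, 2299 to 3745 for AEG and 1985 to 3503 for TYR. DESeq2 called 1 gene for AEG against DMSO, 3 for DPI against PI, 3 for PI against TYR and 7 for AEG against TYR, where edgeR called 0. With libraries left out, called members numbered 4 to 6 for the clock list, 0 to 1 for the targets, 3 to 4 for the splicing factors and 60 to 107 for evening element genes; the shorter motif gave 346 of 889 genes (38.9%), nearer to the 35.6% of all genes than the 47.7% of the full element. Requiring 10 counts in every library left 0 called targets, since FLS2 was then not tested. From the decay and cap-binding list, limma on TPM called 1 gene, the cap-binding CBP20 (-0.39).

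RS41, at 0.00, was -0.0334 without TMM, -0.0089 with DESeq2's size factors, -0.0143 with 10 counts required, -0.0107 with only the groups compared, -0.0071 by DESeq2 and -0.0144 by limma; SR30 was 0.0039 by limma. With libraries left out, RS41 ranged from -0.0848 to 0.0409, GRP4 from -0.0248 to 0.22, UPF2 from -0.17 to 0.0266, SR30 from -0.24 to 0.0578 and RS31 from -0.19 to 0.0772.

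With the replicate number as a block, GRP7 in DMSO against untreated was -2.08 (adjusted p = 2.1e-05, edgeR), 3102 genes were called, and RS41 was -0.000403; the numbers do not pair the libraries, and the block changed no other call among the GRP7 and list results. Leaving out DPI replicate 1 was partly, and the repeats for single named genes were wholly, chosen after seeing the data. Depth, at most 216 GRP7 counts per ZT 2 library, and 3 libraries a group limit what could be detected.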
